A study of Mus musculus with 5 samples.

Results

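Small nucleolar RNAs (snoRNAs) and small Cajal body RNAs (scaRNAs) were described in ear skin of control and Cd1d-deficient mice. The members are the genes of the count table whose Entrez identifier carries a mouse symbol starting with Snord, Snora or Scarna and whose counts sum to 10 or more over the 5 libraries. RefSeq names 142 such mouse genes, 123 of them had a row in the table, and 89 of the 27179 rows met the minimum. They comprise 52 C/D box genes (Snord), 30 H/ACA box genes (Snora) and 7 Cajal body genes (Scarna). The members were thus chosen by name and by their summed raw counts over both groups. That sum draws on 3 control and 2 KO libraries, the deepest being a control. The minimum therefore leans towards members with reads in controls. The members with the smallest sums inside it were Snora20, Scarna3a, Snord70 and Snord98 with 10 counts each, and the nearest outside it were Snord14d with 9 and Snord14c and Snord57 with 7 each. Of the 34 genes outside, 17 had 0 counts in all libraries, among them Snord118, the gene of the U8 RNA used in making 28S and 5.8S ribosomal RNA.

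The study compared ear skin of B6 mice carrying Cd1d -/- (KO, 2 libraries) with control skin (3 libraries). Cd1d encodes a surface protein that displays lipid antigens to natural killer T cells. The titles of the control samples give their genotype as Cd1d +/-, while their genotype tag reads WT, so they are called controls here. Age, sex and the way the allele was made were not given in the sources used here, and no statement says that each library came from its own mouse, so p-values measure the spread between these 5 libraries.

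C/D box snoRNAs bind fibrillarin, Nop56, Nop58 and Snu13 and guide 2′-O-methylation of ribosomal RNA by base pairing with it. H/ACA box snoRNAs bind dyskerin, Nop10, Nhp2 and Gar1 and guide the change of uridine to pseudouridine. ScaRNAs carry the same boxes, gather in Cajal bodies and guide the same changes on the small nuclear RNAs of the spliceosome. Most mouse snoRNAs have no promoter of their own and are cut out of introns of host genes, many of which encode ribosomal proteins or are non-coding genes kept for the snoRNAs they hold.

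The sequences of the genes that the results turn on are given here 5′ to 3′ on the RNA strand, as DNA letters, from the GENCODE annotation of GRCm38. Snord104 is the member that changed, Snord96a is the next most abundant C/D box member, Snora65 and Snora31 are the most abundant H/ACA box members, and Scarna9 is the most abundant Cajal body member. Snora28 was added after its values were seen, because it had the smallest adjusted p among members with a negative fold change. Capitals mark the C box (TGATGA) and D box (CTGA) in Snord104, Snord96a and Scarna9, and the H box (ANANNA) and the terminal ACA in the others. In Snora65 only the ACA is marked.
Snord104: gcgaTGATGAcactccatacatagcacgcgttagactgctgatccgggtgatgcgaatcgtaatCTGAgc
Snord96a: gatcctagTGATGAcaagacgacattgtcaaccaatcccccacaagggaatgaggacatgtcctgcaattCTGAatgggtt
Snora65: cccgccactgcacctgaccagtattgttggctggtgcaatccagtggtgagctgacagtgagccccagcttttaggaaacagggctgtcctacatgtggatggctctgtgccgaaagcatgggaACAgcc
Snora31: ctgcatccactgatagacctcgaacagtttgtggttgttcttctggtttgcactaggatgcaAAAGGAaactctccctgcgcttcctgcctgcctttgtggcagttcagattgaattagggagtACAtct
Snora28: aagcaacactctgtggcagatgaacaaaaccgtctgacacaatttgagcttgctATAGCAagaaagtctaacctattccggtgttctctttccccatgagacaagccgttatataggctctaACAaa
Scarna9: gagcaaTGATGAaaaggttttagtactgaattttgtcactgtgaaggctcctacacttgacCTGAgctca

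Snord104 spans chr11:106500993-106501062 on the plus strand and lies inside the long non-coding gene Gm36220 of RefSeq, which has no row in the count table used here. Snord96a spans chr11:48802032-48802112 (plus) within Rack1, where it overlaps an exon annotated for that gene. Snora65 spans chr2:32963291-32963420 (plus) within Rpl12, Snora31 chr14:75847905-75848034 (plus) within Tpt1, Snora28 chr12:111540941-111541067 (plus) within Eif5, and Scarna9 chr9:15326264-15326333 (minus) within Cep295. Snora65 and Snora28 overlap an annotated exon of their host, and Snora31 and Scarna9 overlap none. In Snord104 the C box began at base 5 and 2 bases followed the D box, and in Snord96a it began at base 9 and 7 bases followed the D box.

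Box motifs were searched in the 88 of 89 members with a GENCODE sequence. The C/D box members had a median length of 79 bases (64 to 238) and the H/ACA box members of 133.5 bases (127 to 205). TGATGA within the first 20 bases together with CTGA within the last 20 was found in 30 of 51 C/D box members (58.8%) in 0 of 30 H/ACA box members and in 4 of 7 Cajal body members. CTGA alone within the last 20 bases was found in 96.1% of C/D box members, 3 of 30 H/ACA box members and 10.2% of 79-base windows of gene promoters from RefSeq. ACA within the last 8 bases together with ANANNA between 35% and 70% of the length was found in 25 of 30 H/ACA box members (83.3%), in 3.9% of C/D box members, in 1 of 7 Cajal body members and in 4.6% of promoter windows of 133 bases. Only the RNA strand was searched, the windows of the paired motifs do not overlap, and a match describes the letters only.

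Reads of these genes were few. The 5 libraries held 32353957 to 79160005 counts, and the 89 members took 0.00462% to 0.00548% of them. In CPM (counts scaled to library size with TMM factors), 1 read stood for 0.0119 to 0.0303. The median tested member had 0.33 CPM, against 16.5 CPM for the median tested gene, and 9 members had a mean of at least 1 CPM. Cd1d1, the mouse gene for CD1d, had counts of 557, 757 and 182 in controls 1 to 3 and of 61 and 48 in KO libraries 1 and 2, the order used throughout (log2 fold change -2.67, SE 0.29, edgeR quasi-likelihood test, adjusted p = 0.0152). All 6 keratinocyte markers were detected in every library, with a summed level of 34150 to 43630 CPM in controls and 48100 to 50640 CPM in KO, and none of them passed. The 5 hair follicle markers summed to 582 CPM in KO replicate 1 and to 11.2 to 19.7 CPM in the other 4 libraries. The 4 skeletal muscle markers summed to 2464 to 2647 CPM in controls and 3032 to 3484 CPM in KO, and the 2 endothelial markers to 104 to 112.5 CPM in controls and 81.3 to 85.3 CPM in KO. The groups also did not overlap for adipocyte markers (478.5 to 816 against 823.9 to 963.2 CPM in KO) and cartilage markers (222.8 to 285.5 against 186.8 to 216.9). The same held for melanocyte markers (170.6 to 203.4 against 213.2 to 228.1) and B cell markers (0.182 to 1.04 against 1.14 to 1.73). Among single genes tested, 39.9% had groups that did not overlap. The sums of fibroblast, T cell, macrophage and red blood cell markers overlapped between the groups. None of these markers passed, none was at 0 in all libraries, and their part in the results was not tested. In whole tissue, fewer cells of a type and less RNA per cell cannot be told apart.

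Of the 89 members, 60 had enough reads to be tested, and 1 passed an adjusted p of 0.05 (edgeR quasi-likelihood test, Benjamini-Hochberg over all 17472 genes tested). The gene was Snord104, which rose in KO skin. No member fell. Over all genes tested 3.76% passed, 2.71% as higher and 1.05% as lower, so 1 of 60 is near the background. At an unadjusted p under 0.05 there were 5 of 60 members, against 21.9% of all genes, and they were Snord104 and Snord49a with higher levels and Snora28, Snora81 and Scarna9 with lower levels. DESeq2 gave an adjusted p to 7 members, of which Snord104 passed as higher and 0 as lower, and 4 of the 60 had an unadjusted p under 0.05 with that tool.

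Snord104 was the most abundant member and stood apart from all others. Its counts were 989, 706 and 399 in controls 1 to 3, and 1321 and 981 in KO libraries 1 and 2. In CPM these were 11.7, 9.21 and 12.1 in controls and 25.9 and 22.9 in KO. Both KO libraries lay far above the highest control. The mean was 11.0 ± 1.58 CPM for controls (SD, n = 3) against 24.4 ± 2.10 CPM for KO (SD, n = 2), a log2 fold change of 1.15 (SE 0.15, 95% interval 0.81 to 1.49, edgeR quasi-likelihood test, adjusted p = 0.0157). Per kilobase of its RefSeq length it had 224 CPM over the 5 libraries, against 50.0 for Snord96a and a median of 2.76 over the members.

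The call rested on single libraries, while the size of the difference did not. Without control replicate 1 the log2 fold change was 1.20 with an adjusted p of 0.097 (edgeR), and in that fit 0 of all genes passed. Without KO replicate 1 it was 1.06 with an adjusted p of 0.336 (edgeR), and 1 of all genes passed. Reads from Snord104 and from Gm36220, the gene around it, cannot be told apart in these counts.

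Snord104 alone took a large share of all member reads. It was 22.8% of the member counts in control replicate 1 (95% exact Clopper-Pearson interval 21.56 to 24.08%), 20.7% in control replicate 2 (19.35 to 22.1%) and 26.7% in control replicate 3 (24.48 to 29.03%). In KO replicates 1 and 2 it was 45.4% (43.54 to 47.19%) and 39.8% (37.84 to 41.74%). These intervals cover counting error only, and PCR copies were not told apart. Against the summed counts of all other members in the same library, its log2 ratio differed by 1.28 between the groups.

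**Figure D1:**
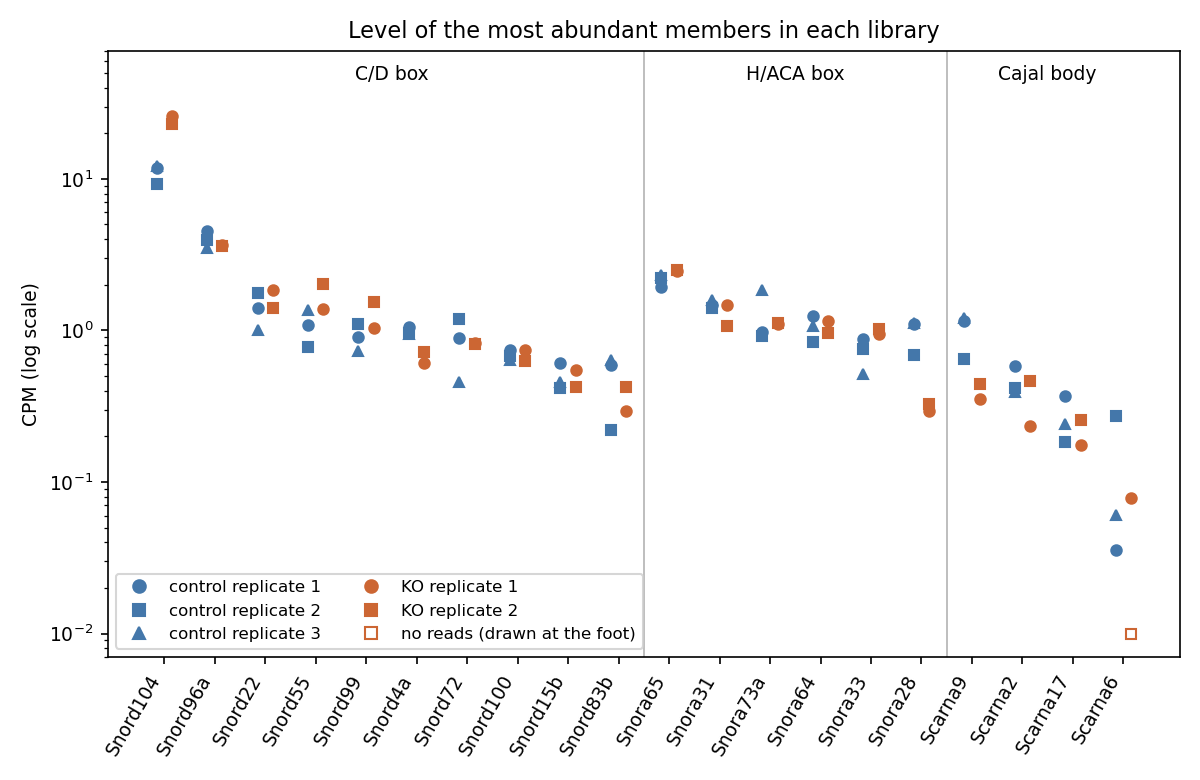
Level of the 10 most abundant C/D box, 6 most abundant H/ACA box and 4 most abundant Cajal body members in each of the 5 libraries, in CPM on a log axis, with 1 symbol per library and an open symbol at the foot for a library with no reads. Snord104 lies above 22 CPM in both KO libraries and below 13 CPM in the 3 controls, Snora28 lies lower in KO than in every control, and most other members overlap between the groups.

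Among the other C/D box members, 0 passed. Over the 35 tested C/D box members the median log2 fold change was -0.08 (range -1.52 to 1.21), with 11 positive and 24 negative, and over all genes tested it was -0.02. Snord96a, a guide for 5.8S ribosomal RNA, had 379, 305 and 115 counts in the controls and 188 and 154 in KO, or 4.495, 3.98 and 3.49 CPM against 3.68 and 3.60. The KO values lay within the range of the controls. Its log2 fold change was -0.14 (SE 0.20, 95% interval -0.59 to 0.31, edgeR adjusted p = 0.739), so a difference of the size seen for Snord104 lies outside the interval.

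Snord22, an RNA needed to process 18S ribosomal RNA in frog oocytes, had 1.41, 1.77 and 1.001 CPM in controls and 1.86 and 1.40 CPM in KO (log2 fold change of 0.21, SE 0.32). Snord55 had 1.09, 0.783 and 1.36 CPM in controls and 1.39 and 2.03 CPM in KO (0.68, SE 0.33, edgeR adjusted p = 0.266). Its KO values lay above every control, by a small margin. Snord4a, in Rpl23a, had 1.06, 0.965 and 0.941 CPM in controls and 0.607 and 0.724 CPM in KO (-0.57, SE 0.34, edgeR adjusted p = 0.347), with both KO values below every control. Neither passed, and 39.9% of all genes tested had groups that did not overlap, 19.9% with KO above and 20% with KO below.

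The remaining C/D box members among the 10 most abundant overlapped between the groups. Snord99 (0.48), Snord72 (-0.08), Snord100 (-0.01), Snord15b (-0.03) and Snord83b (-0.41) had log2 fold changes with standard errors of 0.34 to 0.56, and their mean levels were 0.484 to 0.913 CPM in controls. The 5 tested C/D box members with the lowest log2 fold changes were Snord52 (-1.52), Snord14e (-1.11), Snord87 (-0.91), Snord42b (-0.73) and Snord37 (-0.73). They rest on few reads. Snord52 had 24, 25 and 4 counts in the controls and 0 and 8 in KO (SE 0.95, edgeR adjusted p = 0.376), and Snord87 had 22, 17 and 0 in controls and 5 and 4 in KO. Single libraries of both groups therefore had a count of 0 for these genes, where 3 counts, the limit that a count of 0 allows, are 0.0356 to 0.091 CPM in a library.

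**Figure D2:**
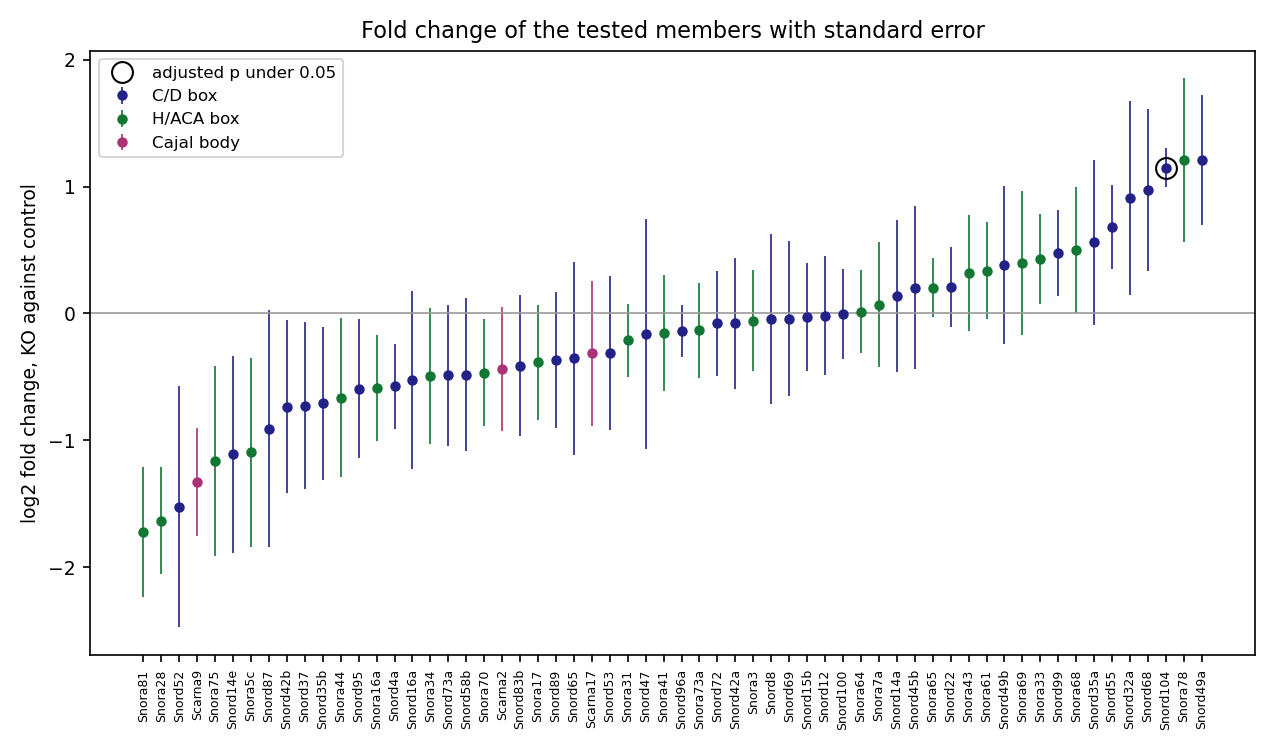
Log2 fold change of KO against control for the 60 tested members, in increasing order, with bars of 1 standard error and colours for the class. Snord104 is the circled point at 1.15 with the shortest bar, and it is the only one past the adjusted p of 0.05, while the bars of most others span a wide range on both sides of 0.

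No H/ACA box member passed. Over the 22 tested H/ACA box members the median log2 fold change was -0.14 (range -1.72 to 1.21), with 9 positive and 13 negative. Snora65, the most abundant of them and a guide for pseudouridines of 28S ribosomal RNA, had 162, 169 and 77 counts in the controls and 125 and 107 in KO, or 1.92, 2.20 and 2.34 CPM against 2.45 and 2.50. The KO values lay just above every control (log2 fold change 0.20, SE 0.24, 95% interval -0.32 to 0.73, edgeR adjusted p = 0.659). Snora31 had 1.47, 1.40 and 1.58 CPM in controls and 1.47 and 1.07 CPM in KO (-0.21, SE 0.29), and its groups overlapped.

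Snora73a, the U17 RNA, which takes part in early cleavage of the ribosomal RNA precursor, had 0.973, 0.913 and 1.85 CPM in controls and 1.10 and 1.12 CPM in KO (log2 fold change of -0.13, SE 0.37). Control replicate 3 was the high library for this gene. Snora64 (0.01, SE 0.33) overlapped between the groups, and Snora33 (0.43, SE 0.36) had KO values of 0.940 and 1.03 CPM above the controls at 0.516 to 0.878 CPM, without passing (edgeR adjusted p = 0.521).

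Snora28 and Snora81 had the lowest fold changes of the H/ACA box members. Snora28 had 93, 53 and 37 counts in the controls and 15 and 14 in KO, or 1.10, 0.691 and 1.12 CPM against 0.294 and 0.327. Both KO libraries lay below the lowest control. The log2 fold change was -1.63 (SE 0.42, 95% interval -2.57 to -0.70), with an adjusted p of 0.059 (edgeR). It passed as lower in some other fits, whose calls over all genes differed. In the reported fit 183 of 17472 genes tested were lower. Snora28 passed with library size scaling (edgeR adjusted p = 0.036), where 974 of 17472 were lower. It also passed with a filter at 1 CPM (edgeR 0.0426, 234 of 14778 lower) and with length and GC offsets (0.0486, 136 of 16777 lower). The others were the fits without control replicate 2 (edgeR 0.0231, 512 of 17097 lower) and without control replicate 3 (0.0342, 1435 of 17403 lower).

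Snora81 had 74, 58 and 16 counts in the controls and 7 and 13 in KO, or 0.878, 0.756 and 0.485 CPM against 0.137 and 0.303. Its KO values also lay below every control (log2 fold change -1.72, SE 0.51, 95% interval -2.86 to -0.58, edgeR adjusted p = 0.088). It passed as lower without control replicate 3 (edgeR adjusted p = 0.0214) and with the replicate number as a block (0.0311). Control replicate 3 stands in a block of its own there, so neither fit uses it for the difference between KO and control. Over all genes tested these fits called 1435 and 802 lower, against 183 in the reported fit. Snora75 (-1.16), Snora5c (-1.09) and Snora44 (-0.66) were the next lowest, each with at most 48 counts in a library and standard errors of 0.63 to 0.75.

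The Cajal body members had the lowest summed level in KO relative to controls, and 0 of 3 tested passed. Scarna9, a guide for the U2 small nuclear RNA, had 98, 50 and 40 counts in the controls and 18 and 19 in KO, or 1.162, 0.652 and 1.21 CPM against 0.352 and 0.444. Both KO values lay below every control (log2 fold change -1.33, SE 0.43, 95% interval -2.27 to -0.39, edgeR adjusted p = 0.103). Without control replicate 2, the lowest control, it passed as lower (-1.58, edgeR adjusted p = 0.0371). In that fit 512 of 17097 genes tested were lower, against 183 of 17472 in the reported fit.

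Scarna2, which also acts on U2, had 49, 32 and 13 counts in the controls and 12 and 20 in KO (log2 fold change of -0.43, SE 0.49, edgeR adjusted p = 0.651). Scarna17 had 31, 14 and 8 counts in the controls and 9 and 11 in KO (-0.31, SE 0.57). Both overlapped between the groups. Scarna6 was not tested and had 3, 21 and 2 counts in the controls and 4 and 0 in KO, with control replicate 2 as the high library.

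The summed level of each class showed how far Snord104 set the total. The 52 C/D box members summed to 31.7, 28.1 and 28.1 CPM in controls and 42.7 and 41.2 CPM in KO, a ratio of the means of 1.43. Without Snord104 the other 51 summed to 19.9, 18.9 and 15.96 CPM in controls and 16.9 and 18.4 CPM in KO, a ratio of 0.964. The groups did not overlap with Snord104 and overlapped without it. The H/ACA box members summed to 17.5, 14.7 and 15.3 CPM in controls and 13.3 and 15.1 CPM in KO, a ratio of 0.897, with overlap. The Cajal body members summed to 2.26, 1.75 and 1.97 CPM in controls and 0.999 and 1.24 CPM in KO, a ratio of 0.560, with both KO sums below every control. Within that sum Scarna9 was the member with the most counts in the controls and in KO replicate 1. It held 98, 50 and 40 of 191, 134 and 65 counts in the controls and 18 and 19 of 51 and 53 in KO. No sum without Scarna9 was made, so the lower Cajal body sum is not shown to extend to the other members.

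**Figure D3:**
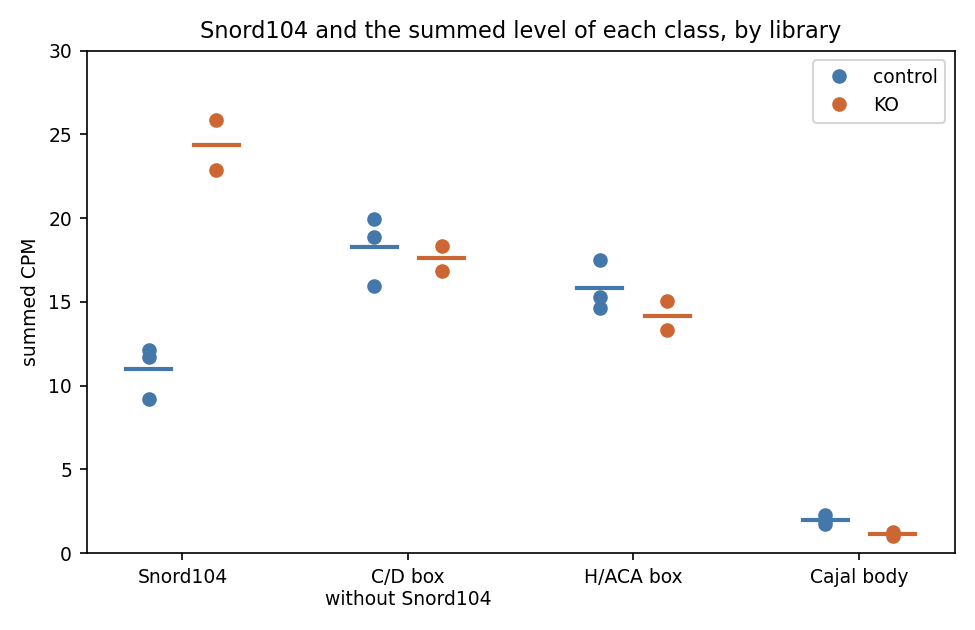
Summed CPM of Snord104 alone and of the C/D box (without Snord104), H/ACA box and Cajal body members, with 1 point per library and a line at the group mean. Snord104 separates the groups, with means of 11.0 CPM in controls and 24.4 CPM in KO, the C/D box sum without it and the H/ACA box sum overlap, and the Cajal body sum is 1.995 CPM in controls and 1.12 CPM in KO on average.

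Precision was low for most members. The median standard error of the log2 fold change was 0.53 over the 60 tested members (0.15 to 0.95) and 0.16 over all genes tested. The groups did not overlap for 13 of 60 members (21.7%), with KO above every control for 7 and below for 6. Among other tested genes under 1 CPM, 25.5% had groups that did not overlap, and of 2784 such genes 1 passed as higher and 1 as lower.

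The 29 members that were not tested had at most 32 counts in a library. They were 17 C/D box members with 10 to 44 counts in all, 8 H/ACA box members with 10 to 54 and 4 Cajal body members with 10 to 30. Of the C/D box members, 3 had 0 counts in both KO libraries: Snord43, an RNA of the Rpl3 gene, with 8, 10 and 3 counts in controls, Snord111 with 8, 4 and 0, and Snord70 with 5, 5 and 0. Against the 3 counts that a count of 0 allows in a library, no fold is given for them.

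Host genes were compared with the members they hold. A host was annotated for 88 of 89 members, and 55 tested members lay in 44 tested host genes. The median log2 fold change was -0.14 for these members and 0.33 over the 44 hosts, the median of the member minus its host was -0.52, and 43 of 55 members lay below their host. Of the 44 hosts, 10 rose and 1 fell, where 2.71% of all genes tested rose and 1.05% fell. The share that rose varied with transcript length, up to 20.4% of other tested genes of 500 to under 1000 bases. Hosts were not matched to other genes by length, and the part of length in their values was not tested. No tested member in these 11 genes passed, and 1 of the 60 tested members did. Across these 55 members, which share libraries and in part hosts, Spearman's rho between member and host was 0.47 and Pearson's r 0.44. Of the 89 members, 41 overlap an annotated exon of another gene on the same strand and 43 on either strand, and the counting of shared reads is not given, so some reads of a host transcript may stand in a member's count.

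The members with a tested host are given next by the kind of that host, with no test of the difference between kinds. Snord104 is not among them, as Gm36220 has no row. In ribosomal protein genes, 24 members had a median log2 fold change of -0.02 and their 20 hosts of 0.44. In non-coding genes, 15 members had -0.02 and their 9 hosts 0.37, and all 19 tested members in such genes, Snord104 included, had -0.13. In other protein-coding genes, 16 members had -0.54 and their 15 hosts -0.01, and 15 of these 16 members had a negative fold change. Snora28, Snora81 and Scarna9 belong to that last group: Eif5, the host of Snora28 and a translation initiation factor, had 0.06 (SE 0.16), Eif4a2, the host of Snora81, had -0.19 (SE 0.19), and Cep295, the host of Scarna9 and a centriole protein gene, had -0.32 (SE 0.14). Over all 60 tested members, with or without a tested host, those that overlap an exon of another gene had a median of -0.11 (34 tested). Those that overlap none had -0.26 (26 tested).

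**Figure D4:**
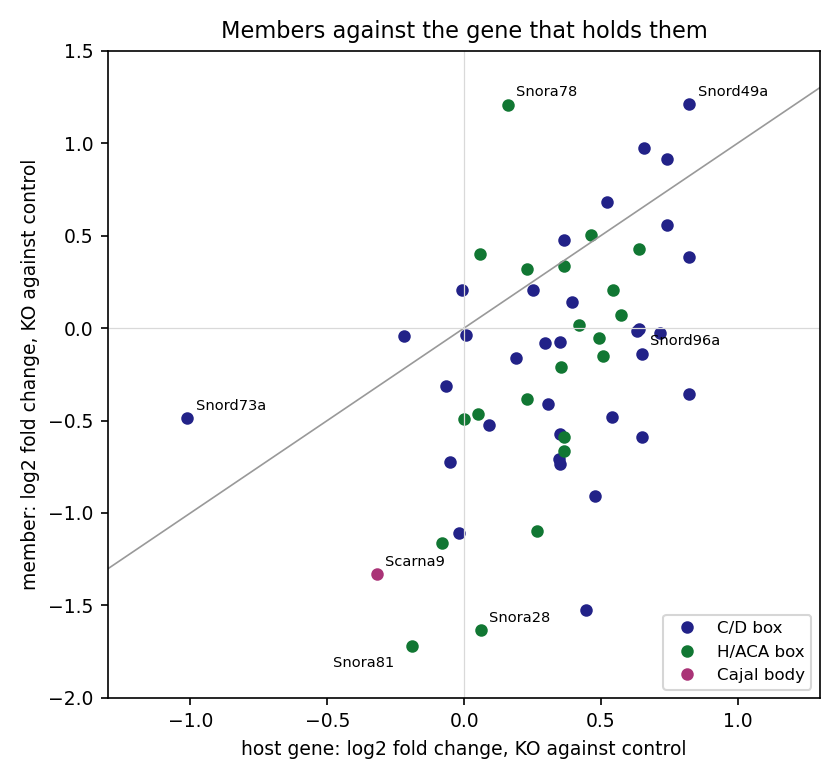
Log2 fold change of each of 55 tested members (vertical axis) against that of the gene that holds it (horizontal axis), KO against control, with the line of equal change. 43 of the 55 points lie below the line, Snord73a is the point at a host value of -1.01, and Snora28 lies at -1.63 with a host value near 0.

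Members of a shared host were next set side by side. These were chosen for their host after values were seen. Rack1, the gene of a ribosome scaffold protein, rose from 775 ± 24.7 CPM in controls (SD, n = 3) to 1216 ± 68.8 CPM in KO (SD, n = 2), with a log2 fold change of 0.65 (SE 0.11, edgeR adjusted p = 0.0207), while its members Snord96a (-0.14) and Snord95 (-0.59, SE 0.55) did not pass. The interval of Snord96a, -0.59 to 0.31, lies below the value of its host.

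Rpl13a, which holds snoRNAs known from the response of cells to fatty acid overload, rose from a mean of 2022 CPM to 3384 CPM in KO (log2 fold change of 0.74, SE 0.13, edgeR adjusted p = 0.0207). Its member Snord32a had 8, 6 and 12 counts in the controls and 21 and 7 in KO (0.91, SE 0.76), and Snord35a had 23, 7 and 5 in controls and 9 and 15 in KO (0.56, SE 0.65). Snord34 had 5, 6 and 0 counts in the controls and 1 and 1 in KO, and Snord33 had 0 counts in every library. These intervals are too wide to tell the members from their host.

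The non-coding gene 2410006H16Rik rose from a mean of 87.6 CPM to 155 CPM in KO (log2 fold change of 0.82, SE 0.14, edgeR adjusted p = 0.0203). Of its members, Snord49a had 36, 16 and 6 counts in the controls and 43 and 20 in KO, with KO CPM values above every control (1.21, SE 0.51, edgeR adjusted p = 0.203), while Snord49b (0.38, SE 0.63) and Snord65 (-0.35, SE 0.76) overlapped between the groups. In Snhg12 (0.37, SE 0.13), Snord99 (0.48) and Snora61 (0.34, SE 0.38) had positive fold changes and Snora16a (-0.59, SE 0.42) and Snora44 (-0.66, SE 0.63) negative ones, and none passed. In Rps12 (0.64, SE 0.12, edgeR adjusted p = 0.0258), Snord100 had -0.01 and Snora33 0.43.

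Rps3a1 was the host that fell, from 1112 ± 90.7 CPM in controls to 552 ± 14.5 CPM in KO (log2 fold change of -1.01, SE 0.12, edgeR adjusted p = 0.0152). Its member Snord73a had 19, 35 and 8 counts in the controls and 12 and 9 in KO (-0.49, SE 0.56, edgeR adjusted p = 0.656), with overlapping groups. The other, Snord73b, had 11, 8 and 5 counts in the controls and 0 and 1 in KO and was not tested. Snora78, in Snhg9 and on the strand opposite to Rps2, had 22, 4 and 8 counts in the controls and 20 and 19 in KO (1.21, SE 0.65, edgeR adjusted p = 0.303), and reads of Rps2 on this span cannot be told apart from it without the strand setting.

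Fold changes of all genes varied with transcript length, and the members were among the shortest genes of the table. Other tested genes of 500 to under 1000 bases stood at a median of 0.43 on the log2 scale, with 20.4% of 931 higher, and those of at least 8000 bases -0.32, with 71 of 870 lower and 0 higher. The 56 other tested genes under 200 bases had a median of 0.18, with 2 higher and 0 lower, against -0.15 for the 60 members. With length offsets Snord104 had a log2 fold change of 0.97 (edgeR adjusted p = 0.037) and with length and GC offsets 0.996 (0.00147). These offsets took every length under 200 bases as 200 and held GC between 35% and 65%. They therefore cannot tell apart lengths under 200 bases, where most members lie. The part of transcript length in the members' values was not tested beyond these fits.

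**Figure D5:**
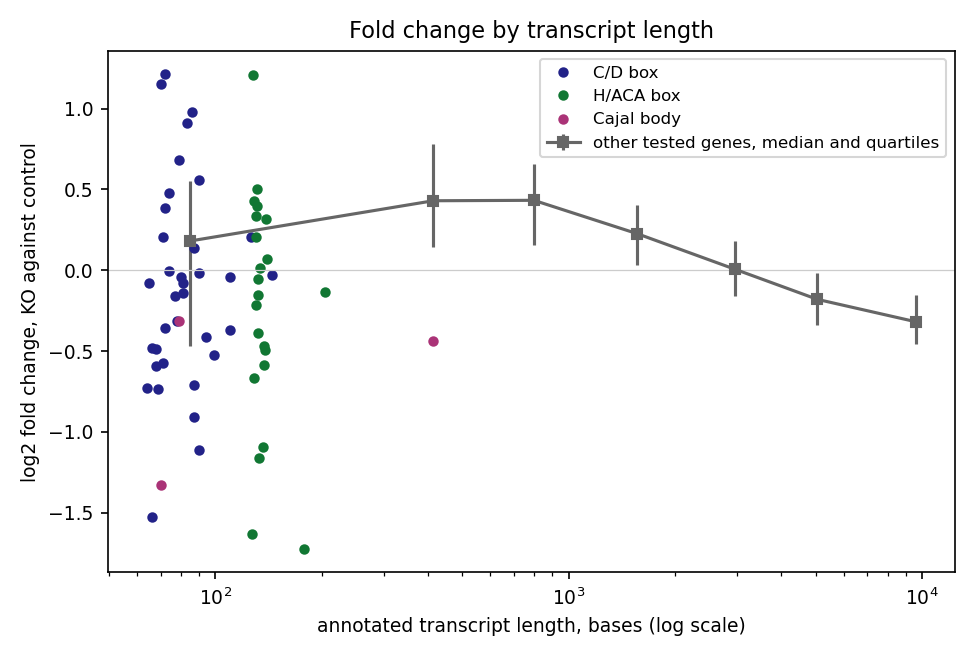
Log2 fold change of the tested members with a GENCODE length (points, by class) and of all other tested genes (median and quartiles in length bins), against annotated transcript length in bases on a log axis. The line for other genes goes from 0.43 at 500 to under 1000 bases to -0.32 at 8000 bases and more, and the members spread between -1.72 and 1.21 around and below its left end.

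Genes for proteins that bind snoRNAs are given by list, where 2.71% of all genes tested rose and 1.05% fell. These shares varied with transcript length, as given above, and no list was matched to other genes by length. Of the 4 C/D box core protein genes 0 passed, with a median log2 fold change of 0.16, and Fbl, for the methyltransferase fibrillarin, had 100.2 ± 3.18 CPM in controls and 117 ± 7.02 CPM in KO (0.23, SE 0.11, edgeR adjusted p = 0.265). Of the 4 H/ACA box core protein genes 1 rose, Nhp2, from 151 ± 7.18 CPM to 225 ± 1.24 CPM (0.57, SE 0.11, edgeR adjusted p = 0.0258), while Dkc1, for dyskerin, had 0.10 (SE 0.14). Of 11 assembly factor genes 1 rose, Pih1d1, a subunit of the R2TP chaperone complex (0.57, SE 0.11, edgeR adjusted p = 0.0267), with a median of 0.11. Of 11 Cajal body protein genes 0 passed, with a median of -0.09, and Coil, for the scaffold coilin, had 0.07 (SE 0.16).

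Genes for release, trimming and decay of such RNAs passed in both directions. Of 22, 1 rose and 3 fell (over all genes tested 2.71% and 1.05%), with a median of 0.01. By length, 20.4% of 931 other tested genes of 500 to under 1000 bases rose, and 71 of 870 of at least 8000 bases fell. This list was not matched to other genes by length, and the part of length in it was not tested. The exosome subunit gene Exosc5 rose by 0.69 (SE 0.12, edgeR adjusted p = 0.0203). The gene of the 5′ to 3′ exonuclease Xrn1 fell from 10.7 ± 1.77 CPM to 5.16 ± 0.96 CPM (-1.06, SE 0.20, edgeR adjusted p = 0.0236), that of the poly(A) polymerase Tent4b fell by 0.50 on the log2 scale (SE 0.12, 0.046) and that of the uridylyl transferase Tut4 fell by 0.72 (SE 0.14, 0.0269).

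Of a list of 22 tested non-coding host genes, which does not hold 2410006H16Rik, 3 rose and 0 fell, with a median of 0.22. The 3 were Snhg20 (0.55), Zfas1 (0.63) and Epb41l4aos (0.63). Over all genes tested 2.71% rose and 1.05% fell. Other short non-coding RNA genes also had low counts. Of 23 listed, 18 had a row, 5 of these had 0 counts, and 6 were tested, with 0 past the threshold and 0 at an unadjusted p under 0.05 (edgeR), a median log2 fold change of -0.31 and a median level of 0.88 CPM. Rn7sk, the RNA that holds the elongation factor P-TEFb inactive, had 7.07 ± 4.33 CPM in controls and 3.75 ± 0.81 CPM in KO (-0.89, SE 0.50, edgeR adjusted p = 0.352). Of 52 tested genes with a microRNA symbol 2 rose, Mirlet7i and Mir682, and 0 fell, with a median of -0.07. Over all genes tested 2.71% rose and 1.05% fell. That list was made by symbol and also holds the host genes Mir17hg, Mir99ahg, Mir22hg and Mir1a-1hg. Mir22hg is in the list of non-coding host genes as well.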

How the data were processed

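The values deposited by the authors are raw read counts, whole numbers for 27179 Entrez genes in 5 libraries. Per the submitters' processing notes the tools were FastQC, HISAT2 2.0.4 and DESeq2 1.16.1 with GRCm38 (mm10). For the counting program, strand setting, treatment of shared reads, ribosomal RNA removal or poly(A) selection and fragment size, the sources used here give nothing. Each could change the counts of RNAs this short. Symbols came from RefSeq (25275 rows had one) and lengths, hosts and sequences from GENCODE and RefSeq on GRCm38.

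From these counts, filterByExpr kept 17472 genes. After TMM scaling, KO was tested against control with edgeR 4.0.16 (robust quasi-likelihood test, R 4.3.3) with Benjamini-Hochberg adjustment at 0.05. The biological coefficient of variation was 0.154, and 95% intervals come from the same fit. The fit was tested on simulated data. Alternatives were other scalings, count filters, DESeq2 1.42.0, length and GC offsets (mgcv 1.9.3), the replicate number as a block, and each replicate left out.

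The text names members past the threshold, the 10 C/D box, 6 H/ACA box and 4 Cajal body members of highest mean CPM, the 5 lowest fold changes of the first 2 classes, and their hosts. Members and lists were chosen with earlier results of these data known. The ratio of a member to the other members and the sums without Snord104 were chosen after seeing the data.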

Additional observations from a re-analysis of the deposited data

How the results depend on the processing

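Snord104 passed in every fit listed in the processing section except without control replicate 1 and without KO replicate 1, so the count of C/D box members higher was 0 to 1 with a replicate left out. Where a KO replicate is left out, the fit takes the single KO library left to spread as the controls do. The count of H/ACA box members lower, 0 in the reported fit, was 1 with library size scaling, with the 1 CPM filter and with length and GC offsets, 1 with the replicate block, and 0 to 2 with a replicate left out. That of Cajal body members lower was 0 to 1 with a replicate left out.

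The C/D box median was -0.23 with library size scaling (where the median of all genes was -0.16), -0.45 with all rows of 10 or more counts, 0.33 with the 1 CPM filter, -0.31 with length offsets, 0.48 over members of at least 1 CPM and -0.24 to -0.000803 with a replicate left out. The H/ACA box median was -0.29 with library size scaling, -0.28 with length and GC offsets, -0.30 with rows of 10 or more counts, -0.35 with length offsets and -0.50 to 0.039 with a replicate left out. The Cajal body median was -0.43 over the 3 members tested in the reported fit, and the members tested differed in some other fits. With the 1 CPM filter Scarna9 was the only Cajal body member tested, and its value was -1.33. With rows of 10 or more counts the median was -0.82, over all 7 Cajal body members. It was -0.81 when the offsets used length alone and -1.02 when they also used GC. With a replicate left out it ranged from -0.86 (without KO replicate 2) to -0.22 (without control replicate 1). The member minus host median was -0.67 with rows of 10 or more counts and -0.75 to -0.36 with a replicate left out. The 657 genes past the threshold became 1242 with library size scaling (268 higher, 974 lower), 1834 with DESeq2, 21 with length offsets and 0 to 3277 with a replicate left out. The cause was not tested, except that other count filters change which members are tested. With rows of 10 or more counts all 89 members are tested. That sum draws on 3 control and 2 KO libraries, so it leans towards members with reads in controls.

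Controls and KO share only replicate numbers 1 and 2, whose libraries deviated together with correlations of 0.016 and 0.064, so the numbers are not taken to pair them. With the replicate number as a block 2037 genes passed, the C/D box median was -0.30, and Snord104 (1.23) and Snora81 passed among the members. Control replicate 3 stood in a block of its own in that fit, so it did not enter the difference between KO and control. The median tested member had 0.33 CPM, and what held the counts of members low was not tested. Of the named members' values in the other fits, 343 kept their direction and side of the threshold, 16 had the other sign without passing, 8 gained the threshold and 2 lost it. As a ratio to the other members, 3 of 28 had the other sign.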
